A study of Homo sapiens with 12 samples.

Results

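HCCLM3, an established line of human hepatocellular carcinoma cells, was compared after growth with LX2, an established line of human hepatic stellate cells, and after growth without it. The comparison takes 6 of the 12 RNA-seq libraries of a study in which both lines were held in a chip device, 3 libraries of HCCLM3 with LX2 and 3 of HCCLM3 alone, chosen by their labels. All 6 carry the label WT for genotype, and the labels give no other treatment, dose or time. LX2 alone and LX2 with HCCLM3 (3 libraries each) were used only to read transcripts of the partner line. Of 60612 genes in the deposited table, 18201 had a count of at least 10 in at least 3 of the 6 libraries and were tested. The sources used here do not give the way in which tumour and stellate cells were separated for RNA extraction. Nor do the labels call the replicates separate cultures, and the spread that the p-values rest on may therefore be technical. These are bulk samples, in which fewer cells of a type and less RNA per cell cannot be told apart.

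Stellate cells lie beside hepatocytes and, once activated, become the matrix-producing cells of liver scar and of the stroma of liver tumours. Tumour cells next to stroma receive cytokines of the interleukin-6 family, which signal through gp130 and STAT3 to the acute-phase genes of hepatocytes, growth factors of the EGF and TGF-beta families, and matrix ligands. Dense tissue can also run short of oxygen, which stabilises hypoxia-inducible factors, and loss of growth factor signalling frees FOXO factors to act in the nucleus.

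The 6 libraries held 65675929 to 77712308 counts. Mitochondrial transcripts took 6.80% to 8.49% of counts, and the groups overlapped. The number of genes with a count was 21261 to 21667 alone and 22734 to 23329 with LX2, without overlap (two-sided exact permutation p = 0.1, the smallest that 3 against 3 allows). Pearson's r of log2(CPM + 1), with CPM as counts scaled to library size, was taken across the 11124 genes with a mean of at least 1 FPKM. It was 0.976 to 0.980 between libraries of a group and 0.951 to 0.958 between groups. The first principal component of the same values held 52.8% of the variance and parted the groups.

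The label of the line was read against marker genes. The keratins KRT8 (523 to 581 FPKM, the authors' fragments per length of transcript and depth, alone; 271 to 378 FPKM with LX2) and KRT18 (277 to 319 FPKM alone; 223 to 229 FPKM with LX2) were abundant in all 6 libraries. Hepatocyte markers were mostly low: 6 of 30 reached a mean of 1 FPKM alone and 9 of 30 with LX2, albumin (ALB) stood at 0.420 to 0.680 FPKM alone and the fetal protein AFP at 0.549 to 0.832 FPKM. Of 18 markers of hepatoma and progenitor cells, 9 reached 1 FPKM in each group. COL1A1, the main collagen of activated stellate cells, had 16, 20 and 541 counts alone and 21, 356 and 1448 counts with LX2, with the highest value of each group in its replicate 3, and the groups overlapped.

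With LX2, 1825 genes were called higher (10%) and 2097 lower (11.5%), together 21.5% of the 18201 tested, at a Benjamini-Hochberg adjusted p under 0.05 in edgeR's quasi-likelihood test. The groups did not overlap in FPKM for 43.9% of genes. Genes of blood cells, among them haemoglobins and granule proteins, were part of these calls. Outside the blood-cell lists and the immunoglobulin and T cell receptor segments, 3876 of 18127 genes were called (21.4%), 1781 higher and 2095 lower. Leaving the blood-cell genes out before library sizes and scaling gave 3862 calls.

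Of the 3876, 788 rose at least 2-fold (4.35% of genes tested) and 265 fell at least as far (1.46%). The size of a change went with the level of the gene. Under a mean of 1 FPKM, 515 genes rose that far and 87 fell, whereas at 5 FPKM or more 61 rose and 93 fell. The 515 became 274, 254 and 231 without replicate 1, 2 or 3 with LX2, and 421 to 533 without a library alone. A gene with next to no count alone passes the count minimum only through the group with LX2. The split between rises and falls depended on the scaling of libraries: on library totals alone, in place of TMM factors (a scaling by the trimmed mean of gene ratios), the median log2 fold change of all genes moved from 0.0329 to 0.208, the calls became 2968 higher and 1033 lower, and at 5 FPKM or more 107 rose and 43 fell at least 2-fold. The same shift bears on every small fall named below.

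**Figure D1:**
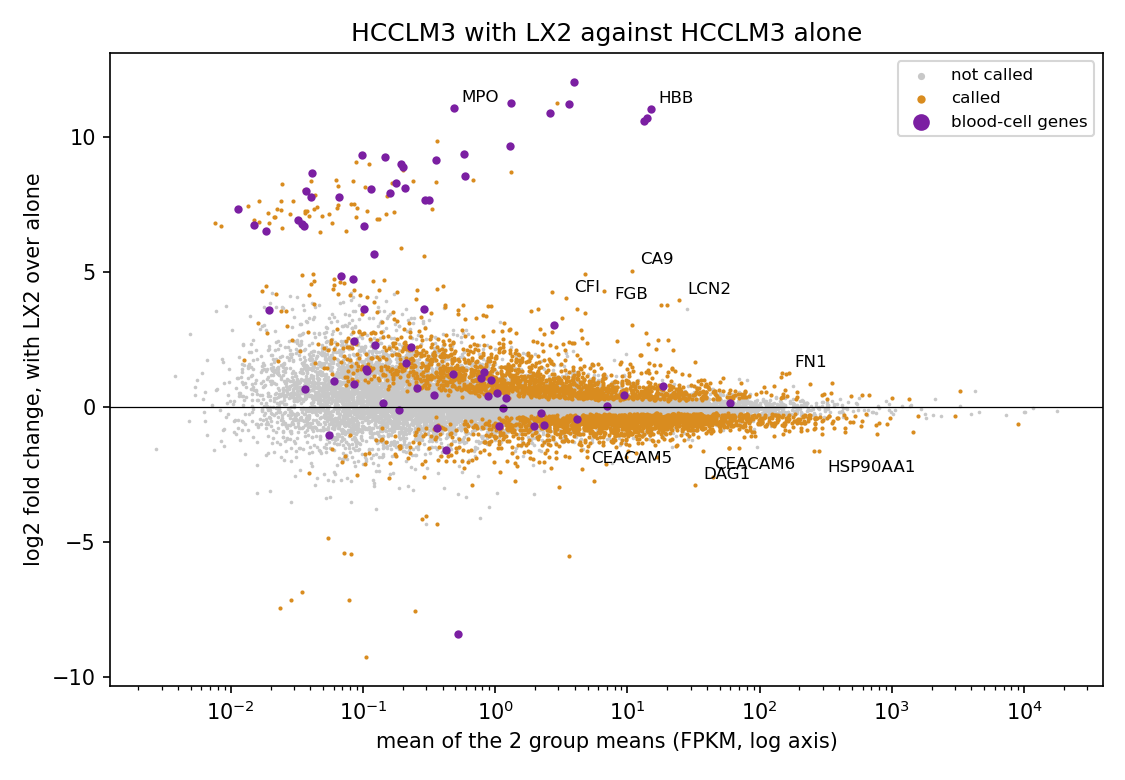
Log2 fold change of each of the 18201 genes tested (HCCLM3 with LX2 over HCCLM3 alone, vertical axis) against its mean level in FPKM (log axis), with called genes in orange and blood-cell genes in purple. The blood-cell genes HBB and MPO lie near the top, CA9 and FGB lie well above 0 at moderate level, and the abundant genes HSP90AA1 and CEACAM6 lie below 0.

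Genes of the acute-phase response, the plasma proteins that hepatocytes secrete in inflammation, stood higher with LX2. Of 20 listed, 10 were tested, 7 rose and none fell, with a median log2 fold change of 2.21 over the 10 (0.0329 over all genes). Of the 10, SAA1 passed the count minimum only through the group with LX2, and without any 1 library with LX2 the list had 5 or 6 rises among 9 tested (median 1.91 to 1.95). The 3 fibrinogen chains, which join into the soluble precursor of the clot, are encoded side by side on chromosome 4 (FGB at chr4:154563011-154572807, FGA at chr4:154583128-154590745, FGG at chr4:154604134-154612849, GRCh38). FGB stood at 2.18, 2.16 and 2.14 FPKM alone and at 33.9, 33.7 and 32.7 FPKM with LX2, a log2 fold change of 3.78 (SE 0.07, adjusted p = 6.6e-06). FGG stood at 0.388, 0.466 and 0.855 FPKM alone and 13.2, 11.9 and 13.3 FPKM with LX2 (log2 4.31, SE 0.30, adjusted p = 0.000577). FGA, the most abundant of them alone, rose less, from 4.86, 4.81 and 4.53 FPKM to 20.1, 20.9 and 19.4 FPKM (log2 1.92, SE 0.08, adjusted p = 0.000148). In each of the 3 genes the groups lay far apart next to their spread.

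The copper-carrying ferroxidase CP rose from 3.74, 5.48 and 4.72 FPKM to 25.8, 35.6 and 27.1 FPKM (log2 2.50, SE 0.17), and the fibrinogen-like FGL1 from 12.7, 11.4 and 11.8 FPKM to 33.4, 33.3 and 35.9 FPKM (log2 1.35, SE 0.09). SAA1, serum amyloid A, had no count alone and 23, 19 and 11 counts with LX2, at least 19.6-fold higher against a floor of 3 counts over the group. The acute-phase genes CRP and HP did not reach the count minimum. Albumin (ALB), a negative acute-phase protein, also rose, from 0.680, 0.492 and 0.420 FPKM to 3.07, 3.45 and 3.50 FPKM (log2 2.46, SE 0.22, adjusted p = 0.0011), while APOA1 had 11 to 23 counts alone and 8 to 19 with LX2. Over all hepatocyte markers 6 of 18 tested rose and none fell, and the 6 include the fibrinogens.

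Complement genes, whose products make up the blood's lytic and opsonising cascade and come largely from the liver, moved the same way: 10 of 18 tested rose and 1 fell (median 1.37). C4A and MASP1 passed the count minimum only through the group with LX2, and without any 1 library with LX2 the list had 7 or 8 rises among 16 tested (median 1.09 to 1.16). Complement factor I (CFI), a protease that inactivates C3b and C4b, stood at 0.380, 0.277 and 0.391 FPKM alone and 7.36, 6.49 and 5.75 FPKM with LX2 (log2 4.04, SE 0.19, adjusted p = 0.000204). C2 and CFB, proteases of the classical and alternative convertases, rose by log2 3.55 (SE 0.12) and 3.74 (SE 0.27). Their gene models overlap on the same strand, so reads could be split between them. The summed counts were 173, 167 and 179 alone and 2160, 2229 and 2068 with LX2. A further gene on the strand of CFB, AL645922, overlaps it and had 58, 66 and 100 counts alone and 0, 0 and 0 with LX2. Summed with AL645922, the CFB counts differed by log2 2.34. The C1 proteases rose too, C1R from 5.80, 5.57 and 5.01 FPKM to 26.2, 36.6 and 18.9 FPKM (log2 2.15, SE 0.23), and C1S by log2 1.54 (SE 0.26). C4A had 2 counts in all alone and 545 with LX2, a ratio of 302 (exact 95% interval 83.2 to 2499, for counting error only), and C4A and C4B are near-identical copies between which reads cannot be assigned with certainty.

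**Figure D2:**
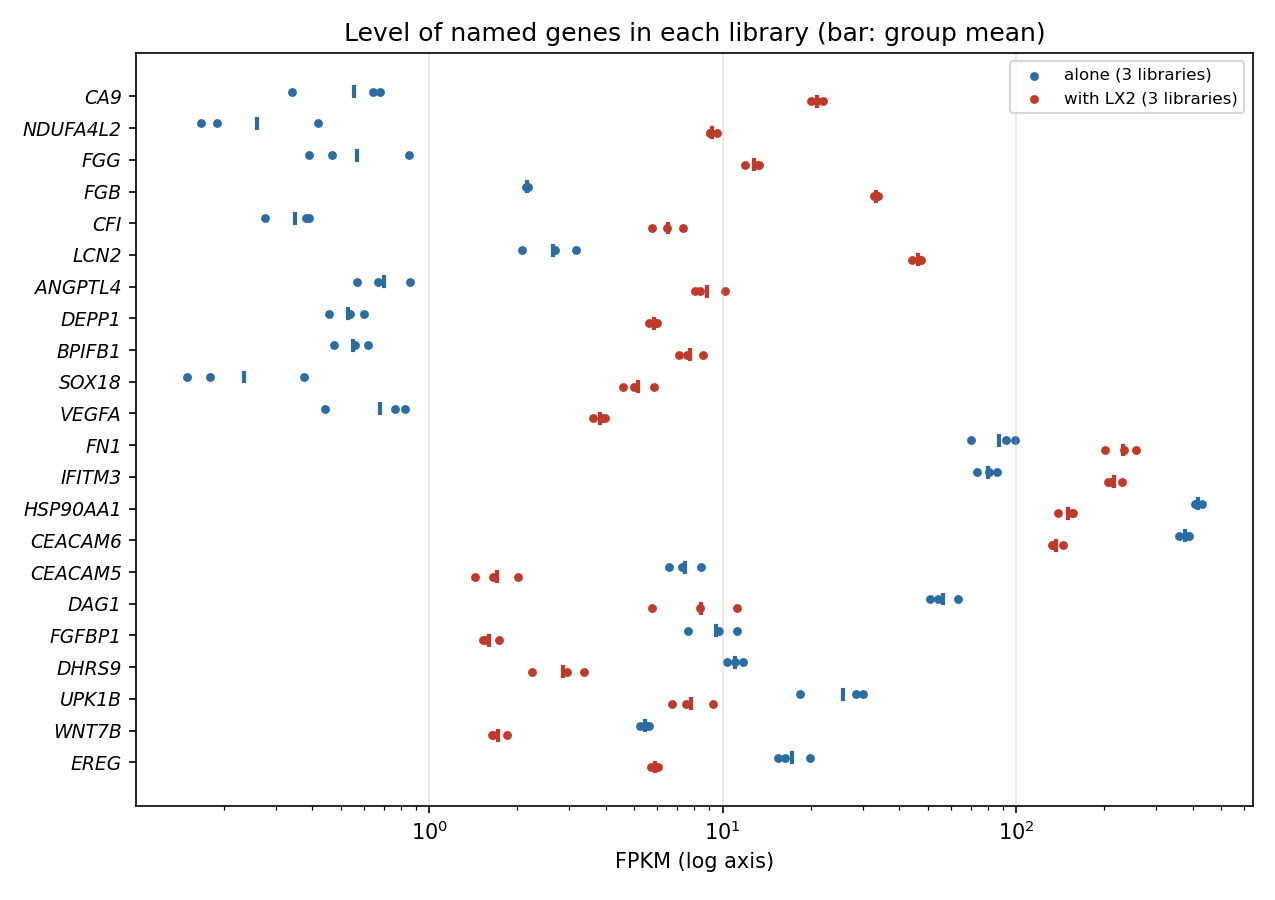
Level of 22 named genes in each library (FPKM, log axis), HCCLM3 alone in blue and with LX2 in red, with the group mean as a short bar. The 3 red points lie apart from the 3 blue points in every gene shown, to the right for 13 genes from CA9 to IFITM3 and to the left for 9 from HSP90AA1 to EREG. Most of the 22 were chosen among genes whose groups did not overlap, so this separation was largely fixed by the choice. Of all genes tested, 43.9% did not overlap in FPKM.

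In the list of IL-6 family ligands, receptors and STAT3 targets, 9 of 22 tested rose and 2 fell (median 0.35). Among receptors, the oncostatin M receptor OSMR rose from 4.72, 5.70 and 4.71 FPKM to 9.73, 12.6 and 11.2 FPKM (log2 0.98, SE 0.12, adjusted p = 0.0029), while IL6ST, which encodes gp130, was at 5.39, 8.10 and 6.31 FPKM alone and 9.04, 9.68 and 8.58 FPKM with LX2 and did not pass (log2 0.30). STAT3 itself rose from 6.12, 7.15 and 6.65 FPKM to 9.56, 10.6 and 9.59 FPKM (log2 0.41, SE 0.08). Among targets, the feedback inhibitor SOCS3 rose from 8.78, 9.20 and 9.19 FPKM to 21.2, 21.7 and 21.8 FPKM (log2 1.08, SE 0.07, adjusted p = 0.000547). The transcription factors CEBPD (log2 1.46, SE 0.13), BCL3 (log2 0.97, SE 0.09) and CEBPB (log2 0.61, SE 0.08) rose as well, and the STAT5 target CISH fell (log2 -0.78, SE 0.13). The ligand IL6 stayed between 0.0806 and 0.484 FPKM in all 6 libraries and did not pass.

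Of 24 NF-kB targets and regulators, 8 rose and 2 fell (median 0.227). Lipocalin 2 (LCN2), a secreted carrier of bacterial siderophores, stood at 2.68, 2.07 and 3.17 FPKM alone and 44.1, 47.3 and 47.3 FPKM with LX2 (log2 3.96, SE 0.17, adjusted p = 0.000156). LCN2 is also made by maturing granulocytes. It had 5535, 6156 and 6009 counts with LX2, where the granulocyte genes LTF and CAMP had 85, 82 and 62 and 12, 15 and 12 counts, and their part in the LCN2 rise was not tested. The adhesion molecule ICAM1 (log2 0.78, SE 0.07) and the prostaglandin synthase PTGS2 (log2 1.56, SE 0.16) rose, and the urokinase gene PLAU fell (log2 -0.92, SE 0.10). Among 21 chemokines and cytokines 6 rose and 1 fell: CXCL5 rose from 25.2, 30.5 and 26.5 FPKM to 59.6, 54.4 and 57.1 FPKM, CXCL2 rose by log2 2.07 (SE 0.20) and the death ligand TNFSF10 by log2 3.74 (SE 0.20), whereas IL18 fell from 8.7, 8.23 and 9.89 FPKM to 4.2, 3.81 and 4.26 FPKM.

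Interferon-response genes went both ways, with 9 of 28 tested higher and 5 lower (median 0.557; 16 and 4 on library totals; 3 lower without replicate 2 alone or replicate 2 or 3 with LX2). The interferon-induced membrane proteins, which restrict virus entry, were higher: IFITM3 stood at 86.3, 73.4 and 80.7 FPKM alone and 211, 229 and 207 FPKM with LX2 (log2 1.26, SE 0.09, adjusted p = 0.00064), and IFITM2 (log2 2.84, SE 0.35) and BST2 (log2 2.20, SE 0.25) rose from lower levels. The RNA sensor DDX58 fell from 2.32, 2.45 and 2.60 FPKM to 0.977, 0.875 and 0.761 FPKM (log2 -1.66, SE 0.14), and SAMD9 fell by log2 1.42 (SE 0.17). ISG15, a ubiquitin-like protein that interferon induces strongly, was at 27.2 to 36.9 FPKM alone and 37.0 to 40.4 FPKM with LX2 and did not pass. In MHC class I presentation 8 of 19 rose and none fell (median 0.467; 16 rose on library totals and 5 without replicate 3 with LX2). The light chain B2M rose from 54.6, 60.1 and 56.2 FPKM to 100, 91.7 and 98.7 FPKM (log2 0.60, SE 0.07), the immunoproteasome subunit PSMB9 by log2 1.58 (SE 0.23) and PSMB8 by log2 0.69 (SE 0.11). HLA-B rose by log2 2.35 (SE 0.39), but it shares reads with HLA-C, which did not pass, and their summed counts differed by log2 0.77.

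In the hypoxia list 11 of 31 genes rose and 2 fell (median 0.265), and the rises were uneven. Carbonic anhydrase 9 (CA9, chr9:35673918-35681159), a surface enzyme induced by HIF-1, stood at 0.677, 0.341 and 0.643 FPKM alone and 20.1, 21 and 22 FPKM with LX2, a log2 fold change of 5.05 (SE 0.27, adjusted p = 0.000314). NDUFA4L2, a HIF-1 target of mitochondria that was on no list, rose from 0.167, 0.418 and 0.189 FPKM to 9.57, 9.04 and 9.07 FPKM (log2 4.92, SE 0.35). ANGPTL4, a secreted lipase inhibitor, went from 0.861, 0.671 and 0.569 FPKM to 8.35, 10.2 and 8.04 FPKM (log2 3.47, SE 0.20), and VEGFA, the endothelial growth factor, from 0.442, 0.766 and 0.827 FPKM to 3.61, 3.98 and 3.88 FPKM (log2 2.32, SE 0.22, adjusted p = 0.00126). The mTORC1 inhibitor DDIT4 rose from 7.28, 7.53 and 7.71 FPKM to 38.0, 34.7 and 37.6 FPKM (log2 2.12, SE 0.08), NDRG1 by log2 1.29 (SE 0.07) and the collagen cross-linking enzyme LOX by log2 2.63 (SE 0.20). LX2 also expressed CA9, with 1168 to 1457 counts alone and 2299 to 2490 with HCCLM3, beside 2543 to 2824 in HCCLM3 with LX2. Genes on the opposite strand overlap CA9 (ARHGEF39), NDUFA4L2 (SHMT2), DEPP1 (RASSF4) and LOX (SRFBP1), and whether strand was counted is not stated. Summed with these neighbours, the counts differed by log2 1.79, 0.21, 2.66 and 0.13. SRFBP1 had 1083, 1371 and 1297 counts alone, where LOX had 81, 113 and 104. Other genes named below, among them TP53INP1, DBP and CLDN7, overlap opposite-strand genes as well.

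Other well-known hypoxia genes did not rise. BNIP3 was at 10.6 to 11.2 FPKM alone and 11.2 to 12.9 FPKM with LX2 (log2 0.00), ADM (log2 0.26) did not pass, and the glucose transporter SLC2A1 fell from 11.2, 11.9 and 11.1 FPKM to 6.77, 6.92 and 6.04 FPKM (log2 -0.96, SE 0.08, adjusted p = 0.00102). Of 20 glycolysis genes, many of which HIF-1 also induces, 2 rose (ALDOC, log2 1.37, SE 0.15, and the lactate exporter SLC16A3, log2 0.57, SE 0.07) and 6 fell, with LDHB at 566, 495 and 535 FPKM alone and 393, 273 and 373 FPKM with LX2. On library totals the glycolysis count was 5 higher and 2 lower, and 3 fell without replicate 1 or 3 alone or replicate 3 with LX2, so its small changes depended on the scaling and on single libraries.

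The upstream sequences of CA9 and ANGPTL4 are shown because these rises lead the hypoxia list. They are the 250 bases before the RefSeq start (GRCh38.p14; CA9 at chr9:35673678-35673927 and ANGPTL4 at chr19:8363905-8364154, plus strand), in lower case, with matches to ACGTG, the core of the element that HIF binds, on either strand in capitals.
CA9: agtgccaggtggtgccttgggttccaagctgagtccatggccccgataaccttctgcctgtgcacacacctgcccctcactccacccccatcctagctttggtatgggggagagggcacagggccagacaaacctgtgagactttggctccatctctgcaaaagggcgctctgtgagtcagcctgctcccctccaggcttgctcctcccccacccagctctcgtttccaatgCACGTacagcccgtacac
ANGPTL4: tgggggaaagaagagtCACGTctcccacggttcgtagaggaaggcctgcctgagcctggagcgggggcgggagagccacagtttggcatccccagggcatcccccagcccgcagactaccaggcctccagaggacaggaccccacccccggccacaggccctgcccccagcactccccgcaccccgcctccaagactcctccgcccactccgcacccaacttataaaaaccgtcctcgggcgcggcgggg
The match begins 18 bases before the start in CA9 and 234 bases before it in ANGPTL4. Of 27 hypoxia genes with an entry, 13 held the motif in these 250 bases (48.1%), and it was in 18.7% of all 27305 windows. Of the 8 that rose and had an entry, 5 held it. A match is a description of the letters, not of a bound site.

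FOXO targets rose without a fall: 9 of 18 tested were higher (median 0.688). PDK4, a kinase that shuts pyruvate out of the citric acid cycle, went from 0.252, 0.327 and 0.329 FPKM to 1.06, 1.52 and 1.15 FPKM (log2 1.86, SE 0.20, adjusted p = 0.0021), and the cell-cycle inhibitor CDKN1B from 14.1, 14.7 and 15.6 FPKM to 25.4, 27.6 and 28.7 FPKM (log2 0.71, SE 0.08). The insulin receptor INSR rose by log2 0.64 (SE 0.10) and FOXO4 by log2 0.80 (SE 0.13). DEPP1, a gene that FOXO factors induce and that was on no list, rose from 0.598, 0.537 and 0.455 FPKM to 5.60, 5.99 and 5.91 FPKM (log2 3.28, SE 0.16, adjusted p = 0.000206). Stress genes of the ATF4 list also moved, 9 of 28 up and 4 down (median 0.179; 14 and 2 on library totals): NUPR1 rose by log2 2.41 (SE 0.15) and DDIT3, which encodes CHOP, by log2 1.31 (SE 0.13), whereas the amino acid transporter SLC7A5 fell from 119, 123 and 119 FPKM to 57.6, 71.6 and 62.5 FPKM (log2 -1.08, SE 0.08).

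**Figure D3:**
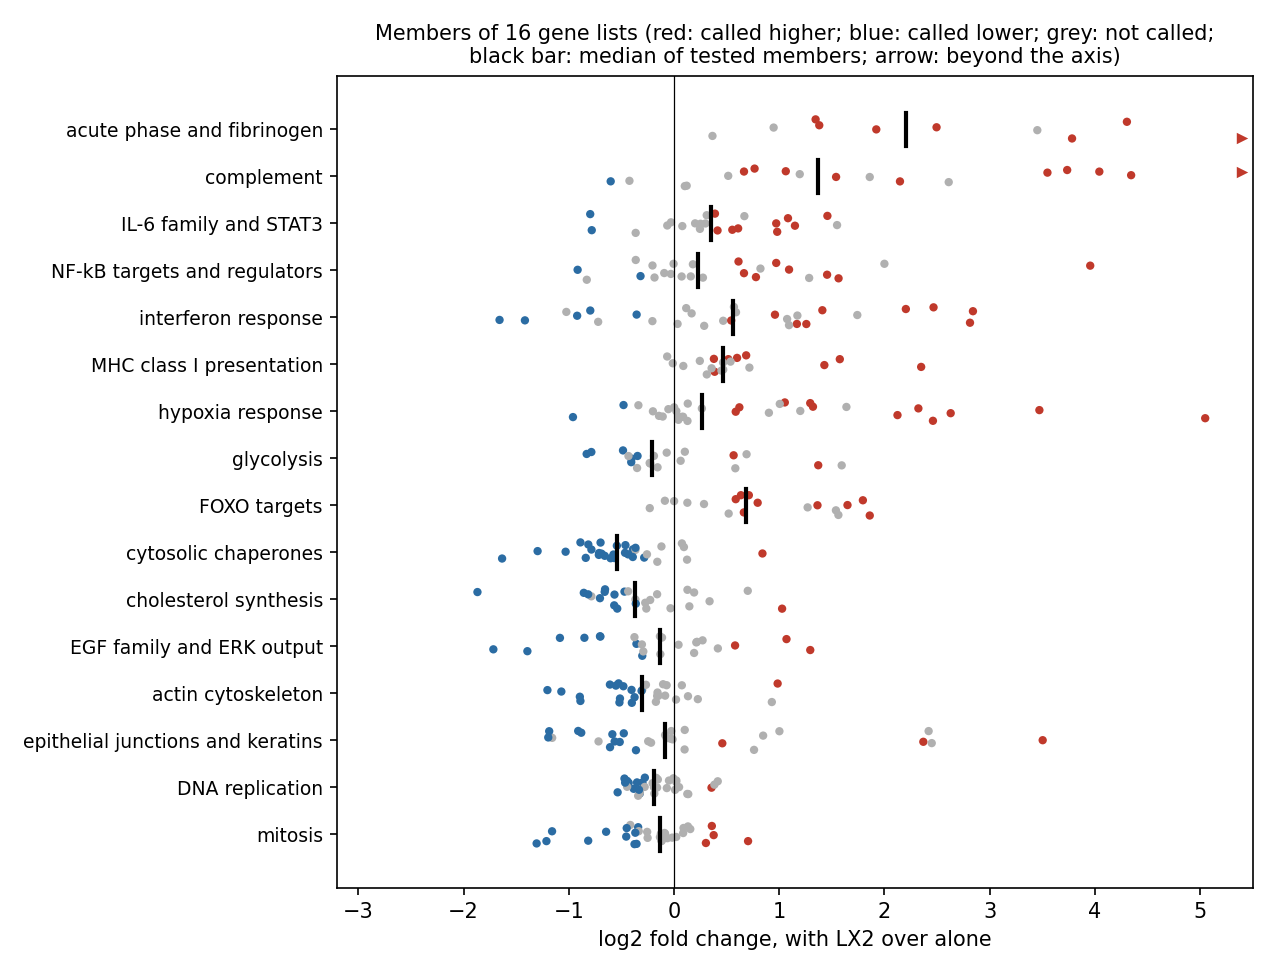
Log2 fold change (HCCLM3 with LX2 over alone, horizontal axis) of every tested member of 16 gene lists, red where called higher, blue where called lower and grey where not called, with the median of tested members as a black bar. Members of the acute-phase, complement and FOXO lists lie mostly to the right of 0, and 23 of 31 chaperones are blue to its left.

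Cytosolic and mitochondrial chaperones fell: 23 of 31 were lower and 1 higher (median -0.543), and on library totals 18 were lower and 1 higher (median -0.37). Their summed CPM was 20130 to 20590 alone and 14430 to 15020 with LX2. The inducible HSP90 subunit HSP90AA1 (chr14:102080742-102139699), which folds kinases and hormone receptors, stood at 411, 407 and 430 FPKM alone and 155, 139 and 156 FPKM with LX2 (log2 -1.63, SE 0.08, adjusted p = 0.000189). HSP90AB1 fell from 706, 690 and 675 FPKM to 477, 458 and 482 FPKM (log2 -0.71, SE 0.06), and HSPA8, the constitutive HSP70, from 370, 364 and 342 FPKM to 237, 234 and 231 FPKM (log2 -0.79, SE 0.07). The HSP110 genes HSPH1 (log2 -1.03, SE 0.09), HSPA4 (log2 -0.89, SE 0.06) and HSPA4L (log2 -1.3, SE 0.11) fell, as did the mitochondrial HSPD1 (log2 -0.81, SE 0.08) and CCT2 of the TRiC ring (log2 -0.84, SE 0.08). HSPA1A and HSPA1B, near-identical copies of the inducible HSP70, fell by smaller steps (log2 -0.39 and -0.28). The small heat-shock protein HSPB1 went the other way, from 177, 144 and 156 FPKM to 304, 335 and 322 FPKM (log2 0.84, SE 0.10, adjusted p = 0.00237). In the endoplasmic reticulum 3 of 24 stress genes fell and 1 rose (2 and 4 on library totals), which is 16.7% called.

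HSPA8 is shown because it is the fallen chaperone with the smallest p whose upstream window holds the search motif, GAANNTTC or TTCNNGAA, the paired units that heat-shock factor binds. The 250 bases before its RefSeq start (GRCh38.p14, chr11:123062137-123062386, minus strand, printed in the direction of transcription) hold 4 overlapping or separate matches, in capitals.
HSPA8: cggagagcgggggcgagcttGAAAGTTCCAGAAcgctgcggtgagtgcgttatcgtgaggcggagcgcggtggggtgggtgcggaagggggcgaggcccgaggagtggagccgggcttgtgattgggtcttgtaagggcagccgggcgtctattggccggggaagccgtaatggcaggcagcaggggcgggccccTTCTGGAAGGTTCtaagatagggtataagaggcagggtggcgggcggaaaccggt
Among chaperones 8 of 28 with an entry held the motif (28.6%), against 11.7% of all windows, and 5 of the 20 that fell and had an entry did.

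Cholesterol synthesis genes, which SREBP2 drives when sterols are short, fell in 11 of 25 and rose in 1 (median -0.367; on library totals 8 fell and 2 rose, median -0.19). SQLE, squalene epoxidase, fell from 21.2, 31.4 and 28.1 FPKM to 16.7, 16.6 and 16.5 FPKM (log2 -0.86, SE 0.13) and ACAT2 from 23.7, 21.8 and 24.3 FPKM to 15, 14.5 and 15 FPKM (log2 -0.82, SE 0.08). HMGCS1, which makes the precursor of mevalonate, was at 6.39, 8.47 and 8 FPKM alone and 1.22, 1.95 and 3.84 FPKM with LX2 (log2 -1.87, SE 0.39, adjusted p = 0.018). Its libraries with LX2 were unlike each other, and the call was lost (adjusted p = 0.0627) without the second of them.

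In the EGF family the ligands EREG (15.5, 19.9 and 16.4 FPKM alone, 5.71, 5.90 and 6.02 FPKM with LX2), AREG (log2 -1.39, SE 0.10) and TGFA (log2 -1.08, SE 0.08) fell, EREG by log2 1.72 (SE 0.10, adjusted p = 0.000458). The receptors ERBB2 (log2 1.3, SE 0.17) and ERBB3 (log2 1.07, SE 0.24) rose from 0.544 to 2.07 FPKM alone, while EGFR (log2 0.04) did not pass. Among outputs of ERK signalling DUSP5 (log2 -0.70, SE 0.07) and FOSL1 (log2 -0.85, SE 0.10) fell and SPRY4 rose (log2 0.58, SE 0.10). In all 8 of 23 fell and 3 rose (median -0.134, which turned to 0.04 on library totals, with 5 lower and 4 higher; 5 fell without replicate 2 alone or replicate 1 or 3 with LX2). The immediate early genes EGR1 (log2 -1.35, SE 0.10) and FOS (log2 -1.20, SE 0.11) fell, and NR4A1 rose (log2 1.53, SE 0.14), in a list of 4 rises and 7 falls among 22 (5 and 5 on library totals; 4 falls without replicate 1 with LX2).

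Dystroglycan, DAG1 (chr3:49468703-49535618), is a surface receptor for laminin. It stood at 54.1, 63.6 and 51.0 FPKM alone and 5.73, 8.40 and 11.2 FPKM with LX2 (log2 -2.90, SE 0.24, adjusted p = 0.000947). The list of basement membrane and laminin receptors had 6 rises and 7 falls among 23 tested: LAMB3 (log2 -1.33, SE 0.09) and its receptor subunit ITGB4 (log2 -1.02, SE 0.07) fell, and BCAM, the Lutheran laminin receptor, rose from 1.39, 1.52 and 1.42 FPKM to 8.16, 9.02 and 8.15 FPKM (log2 2.38, SE 0.09). Matrix genes rose in 8 of 27 and fell in 2 (median 0.569). Fibronectin, FN1, was at 70.1, 99.5 and 92.8 FPKM alone and 201, 257 and 234 FPKM with LX2 (log2 1.24, SE 0.14, adjusted p = 0.00222), and nidogen, NID1, rose by log2 1.13 (SE 0.12). LX2 is a line of matrix-producing cells. Of 19 tested markers of stellate cells and fibroblasts 4 rose and none fell (2 rose without replicate 3 of either group). That is 21.1% called, close to the 21.5% of all genes tested. COL3A1 stood at 58, 39 and 112 counts alone and 300, 848 and 1011 counts with LX2. In LX2 with HCCLM3, FN1 had 31272 to 34257 counts and NID1 had 3962 to 4518. In HCCLM3 with LX2 they had 272789 to 361065 and 11694 to 15241. The part of LX2 transcripts in the matrix rises was not tested.

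Epithelial, gut-type and cytoskeletal genes followed. The carcinoembryonic antigens, adhesion proteins of gut-type epithelium, fell: CEACAM6 from 358, 390 and 379 FPKM to 134, 145 and 133 FPKM (log2 -1.62, SE 0.06, adjusted p = 0.000136) and CEACAM5 from 6.56, 8.46 and 7.27 FPKM to 1.44, 1.65 and 2.01 FPKM (log2 -2.29, SE 0.16). The trypsin inhibitor SPINK1 rose from 4.82, 4.02 and 5.43 FPKM to 22.2, 20.6 and 18.8 FPKM (log2 1.94, SE 0.14), and the gut-type list held 5 rises and 8 falls among 25 (2 rises without replicate 3 with LX2). Actin genes fell in 14 of 29 and rose in 1 (median -0.302; 8 and 4 on library totals; 9 falls without replicate 1 or 3 with LX2), with villin, VIL1, lower by log2 -1.20 (SE 0.09), zyxin, ZYX, by log2 -0.90 (SE 0.07) and FLNA at 243, 280 and 247 FPKM alone and 136, 183 and 148 FPKM with LX2. The YAP targets CCN1 (log2 -1.09, SE 0.12) and CCN2 (log2 -1.05, SE 0.10) fell in a list of 6 rises and 7 falls (8 and 5 on library totals). Leaving out 1 library left 2 to 4 YAP rises, and 4 falls without replicate 3 with LX2. Of 29 junction and keratin genes 10 fell, among them KRT8 (log2 -0.91, SE 0.12) and KRT19 (log2 -0.88, SE 0.09), and 3 rose, among them CLDN7 from 0.928, 1.01 and 1.42 FPKM to 6.46, 6.15 and 7.07 FPKM (7 and 4 on library totals; 1 rise without any 1 library with LX2). In the TGF-beta list 13 of 29 rose and 4 fell (median 0.375), and leaving out 1 library left 10 rises without replicate 2 alone and 4 to 7 without any other: the BMP targets ID3 (log2 0.63, SE 0.09) and ID2 (log2 0.41, SE 0.08) rose, and INHBB (log2 -1.22, SE 0.08) and TGFB1 (log2 -0.58, SE 0.08) fell.

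Proliferation genes fell by small steps. Of 33 DNA replication genes 11 fell and 1 rose (median -0.191), and of 32 mitosis genes 11 fell and 4 rose (median -0.129), but on library totals these became 2 lower and 4 higher, and 6 lower and 5 higher. Leaving out 1 library left 4 to 8 replication falls, with 8 only without replicate 2 alone, and 5 mitosis falls without replicate 1 or 3 with LX2. The larger mitotic falls were those of CENPF, a kinetochore protein, from 7.09, 9.09 and 8.78 FPKM to 3.53, 4.17 and 3.63 FPKM (log2 -1.31, SE 0.11, adjusted p = 0.00095) and of DLGAP5 (log2 -0.82, SE 0.08). MKI67, the usual proliferation marker, was at 13.0, 15.8 and 7.68 FPKM alone and 5.27, 7.37 and 5.11 FPKM with LX2 (log2 -1.21, SE 0.27, adjusted p = 0.023). Alone, replicate 3 lay close to replicate 2 of the group with LX2, and leaving out any of 4 libraries (replicates 1 and 2 alone, replicates 1 and 3 with LX2) ended the call, with adjusted p-values up to 0.0801. CDK1 stood at 18.6 to 21.8 FPKM alone and 21.2 to 23.3 FPKM with LX2 and did not pass (log2 -0.02). In the mitosis list 14 of 26 upstream windows (53.8%) held TTTGAA, the core of the cell cycle homology region, or its reverse complement, against 13.6% of all windows, and 7 of the 9 that fell and had an entry did.

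Other genes were among the largest changes. SOX18, a transcription factor best known in endothelium, rose from 0.375, 0.179 and 0.149 FPKM to 4.56, 5.85 and 5 FPKM (log2 4.25, SE 0.38), and the secreted airway protein BPIFB1 from 0.617, 0.475 and 0.560 FPKM to 8.55, 7.56 and 7.11 FPKM (log2 3.63, SE 0.16). Of 15 listed endothelial markers 5 were tested, of which 2 fell and 3 did not pass. CD34, known from endothelium and blood progenitors and on no list, had no count alone and 28, 19 and 27 with LX2. Among abundant genes the antimicrobial peptide DEFB1 rose from 107, 80.7 and 84.9 FPKM to 255, 238 and 243 FPKM (log2 1.27, SE 0.13) and the retinoic acid carrier CRABP2 from 98.4, 64.7 and 92.2 FPKM to 211, 194 and 208 FPKM (log2 1.10, SE 0.16). Lower were FGFBP1, a carrier of fibroblast growth factors (9.74, 7.64 and 11.2 FPKM alone, 1.52, 1.56 and 1.73 FPKM with LX2), the retinol dehydrogenase DHRS9 (log2 -2.11, SE 0.16), the urothelial UPK1B (log2 -1.87, SE 0.21), the ligand WNT7B (log2 -1.84, SE 0.10), stratifin (SFN, log2 -1.08, SE 0.10) and brain-type glycogen phosphorylase (PYGB, log2 -1.01, SE 0.06).

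Blood-cell genes changed most in ratio. All 13 tested red-cell genes and all 20 tested genes of granulocytes and monocytes rose, and so did 8 of 21 pan-leukocyte genes, while 3 of 8 lymphocyte genes rose and 1 fell and no platelet gene of 4 passed. Most had next to no count alone and passed the count minimum only through the group with LX2, so these shares support nothing, and without any 1 library with LX2 the calls were 1 of the red-cell and 1 or 2 of the granulocyte and monocyte genes. Beta-globin, HBB, had 0, 0 and 4 counts alone and 4038, 2211 and 3070 with LX2, and alpha-globin, HBA1, had 0, 3 and 0 and then 2014, 1849 and 1810 (HBA1 and HBA2 are near-identical copies). Myeloperoxidase, MPO, the granule enzyme of neutrophils, had no count alone and 260, 302 and 261 with LX2, at least 304-fold higher, and S100A9 none and then 348, 240 and 132, at least 266-fold higher. The immunoglobulin light chain IGKC had no count alone and 24, 510 and 382 with LX2, so the first library with LX2 had far fewer than the others, unlike its globin and MPO counts. LYZ rose from 92, 61 and 97 counts to 768, 594 and 730.

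The red-cell list also holds SELENBP1, which HCCLM3 itself expressed (4293, 3989 and 3417 counts alone; 6450, 7284 and 6577 with LX2). Without it the list summed to 0, 10 and 12 counts alone and to 9268, 6687 and 7861 with LX2, at 0.00981% to 0.0141% of the library. All blood-cell genes with at most 10 counts alone, 120 in number, summed to 0.0133% to 0.0173% of the libraries with LX2. Their low counts alone are how they were chosen, and 73 to 79 of them had a count in a library with LX2. Blood-cell transcripts and growth with LX2 cannot be told apart. The 120 genes summed to 9044 to 11356 counts with LX2, beside 11394 to 11998 counts of FGB there.

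**Figure D4:**
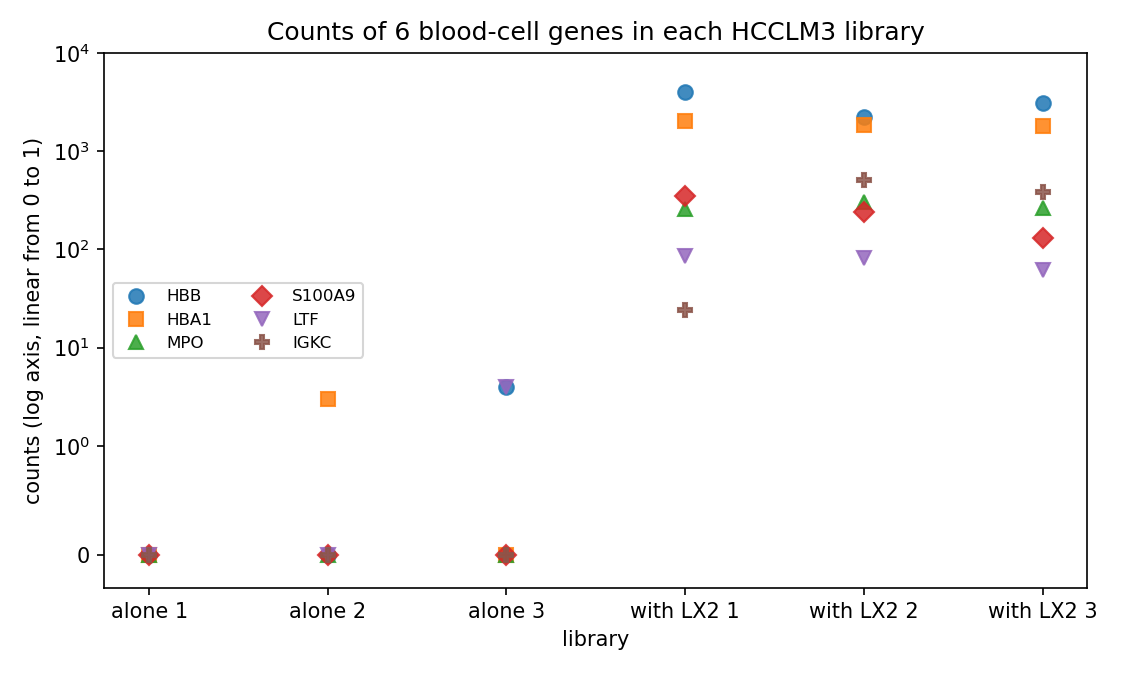
Counts of 6 blood-cell genes (vertical axis, logarithmic above 1) in each of the 6 HCCLM3 libraries (horizontal axis). Alone the genes have 0 to 4 counts, with LX2 HBB reaches 2211 to 4038 and MPO 260 to 302, and IGKC has 24 counts in the first library with LX2 against 510 and 382 in the others.

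Transcripts of LX2 were followed over 41 genes with at least 20 FPKM in LX2 alone and under 0.1 FPKM in HCCLM3 alone. Their summed level was 0.0377% to 0.0706% of that in LX2 in the libraries alone and 0.19%, 0.31% and 0.334% in those with LX2, and replicate 1 with LX2 was the lowest of its group. The level alone is in part fixed by how the genes were chosen. Of 85 called genes with no count in any library alone, 30 were on the blood-cell lists or were receptor segments and 55 were not. The 55 still hold a gene of unnamed function, AC104389 (350, 343 and 227 counts with LX2), that shares its strand and positions with the fetal globin genes HBG2 and HBG1, and the phagocyte receptor FPR1 (12, 16 and 23 counts). Of these 55, 24 had at least 100 counts summed over the 3 LX2 libraries alone and 14 had none. All 55 passed the count minimum only through the group with LX2. The same share over all genes tested was not taken, so nothing about their origin is drawn from it. RNF182, which had 9029 to 9540 counts in the LX2 libraries alone and 32555 to 35537 in those grown with HCCLM3, had 23, 27 and 38 counts in HCCLM3 with LX2, and the glycoprotein hormone subunit CGA, with 16596 to 17725 counts in LX2 with HCCLM3, had 100, 104 and 149.

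Spread between replicates was small for most genes on the scale of log2(CPM + 1). The added 1 narrows the spread of genes of low level, so their values are not comparable with those of higher genes. The median SD was 0.121 alone and 0.105 with LX2 for genes of 5 to 20 FPKM, and 0.167 and 0.166 under 1 FPKM. The share of genes called was higher at higher level, from 11.5% under 1 FPKM to 39.9% at 100 FPKM or more. On the same scale, a range over 1 log2 unit within a group was found in 216 of 5942 genes at 5 FPKM or more alone and 246 of 6224 with LX2, and 89 genes had it in both. A wide range within a group weighs against a call, and 16 of the 373 genes with one in either group were called. Of the 373, 63 (16.9%, against 4.77% of the others) overlapped a gene on the same strand that held at least 10% as many counts.

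Several of the widest ranges were of that kind, though for 1 of the genes named AC140479, with 1995, 35 and 2014 counts alone, no overlapping gene was found. FAM47E-STBD1, a readthrough of the gene for a glycogen-binding protein, had 11, 12 and 1223 counts alone and 1956, 1957 and 11 with LX2, while STBD1 had 2014, 2285 and 487 and then 502, 695 and 2679, and the sums were 2025, 2297 and 1710 and then 2458, 2652 and 2690. NME1-NME2 had 16751, 11859 and 15962 counts alone and 0, 0 and 16488 with LX2, and with NME1 and NME2 the sum was 73389 to 88975 alone and 70823 to 78202 with LX2. UGT1A3, a glucuronosyltransferase whose gene shares its last exons with the other UGT1A genes, had 3465, 1095 and 56 counts alone and 40, 32 and 27 with LX2, a called fall (log2 -5.52) that was lost without any 1 of 5 libraries, all but replicate 3 alone (adjusted p-values up to 0.0909). UGT1A6 rose (log2 2.47, SE 0.43), from 1480, 3636 and 2540 counts to 19198, 15975 and 7967, and over all 9 UGT1A genes the ratio was only log2 0.20. The fall of GOLGA4 (log2 -1.82) came with more counts of TCEA1P2, a pseudogene inside it (168, 349 and 258 alone; 1408, 1730 and 2146 with LX2), and their sum differed by log2 -0.72. Changes of single members of such overlapping genes are uncertain.

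**Figure D5:**
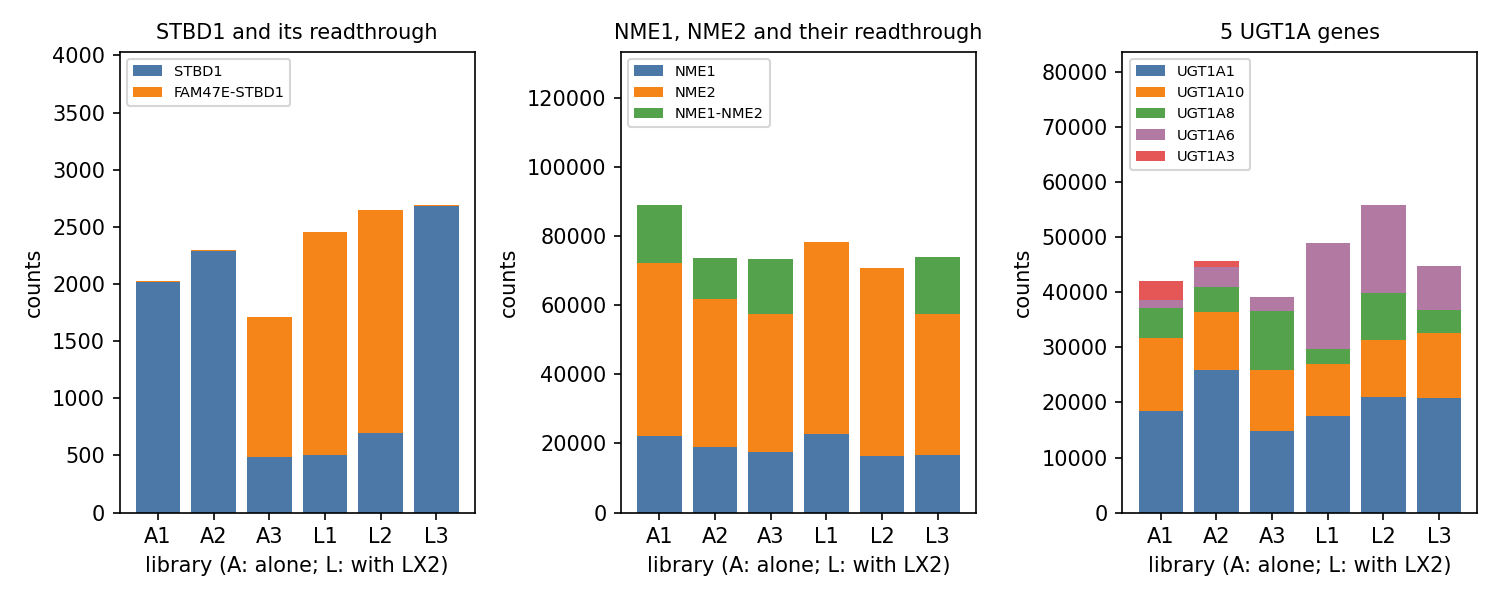
Counts in each library (A, alone; L, with LX2) of overlapping genes, stacked: STBD1 with FAM47E-STBD1, NME1 and NME2 with NME1-NME2, and 5 UGT1A genes. The parts change between replicates of a group (NME1-NME2 has 0, 0 and 16488 counts with LX2), whereas the sums of the NME genes stay between 70823 and 88975.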

How the data were processed

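The members and gene lists were chosen with earlier results of these data known. The deposited table holds, per the file headers, a raw count and an FPKM value for each gene in each library. Counts were tested, and the authors' FPKM describes levels (a count of 0 was read as 0 FPKM). Libraries were paired-end and polyadenylated per the labels' protocols, which also mention adipose tissue and name another sequencer than the series text. The submitters' processing notes list HISAT2 2.0, StringTie 1.3.0 and Bowtie 0.12.2 beside a mouse genome build. The identifiers are human: GENCODE release 29 held 58394 of the 60612, with the same start or end for 90.6%, and positions were taken as GRCh38. No source used here says whether strand was counted, so genes that overlap on either strand may share reads.

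Genes with a count of at least 10 in at least 3 of the 6 libraries were tested with edgeR 4.0.16 (TMM factors, quasi-likelihood test, R 4.3.3; 2 groups, no block), two-sided, Benjamini-Hochberg adjusted over 18201 genes, called under 0.05; adjusted p-values are from it. Alternatives were DESeq2 1.42.0, its size factors, library totals, other filters, limma 3.58.1 on log2(FPKM + 1) and log2(FPKM + 0.1), a replicate block, leaving out each library, and scaling without 707 blood-cell genes (5 lists and receptor segments, with TRAM1 and TRAM2 kept as no segments). There were 47 lists with 1111 different genes. Named genes were the 12 largest rises and falls with at least 5 FPKM, no overlap and outside blood lists, the 8 largest changes at 100 FPKM, up to 4 members a list by p, the 5 widest-ranging genes, 3 genes a blood list and 15 set genes; other members were named after their values were seen, and the results of some members are not reported here. Intervals are exact binomial (95%), and floors are 3 counts a group, for counting error only. Chi-square per degree of freedom was 66.3 to 99.4 between replicates, so none was merged. Upstream sequences are from RefSeq (SciPy 1.17.1, Python 3.11.15).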

Additional observations from a re-analysis of the deposited data

How the results depend on the processing

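Depth was 65675929 counts or more a library, so counting error limits only genes of few counts, and 3 replicates a group limit the rest. None of the called genes that the naming rule chose turned its direction under any setting tried. Some lost their call: 10 on library totals, 12 in limma on log2(FPKM + 1), 11 on log2(FPKM + 0.1) and 4 without the filter on low counts. For chosen genes that were not called, a turn of direction was not recorded. Genes named outside the rule were not rerun. Of all genes tested 3922 were called, and 3030 to 4647 under the other tests, filters and scalings. Leaving out 1 library gave 1932 to 3115 calls, 1926 to 3073 outside the blood-cell lists and 675 to 1056 changes of at least 2-fold. The lowest came without replicate 3 with LX2 (1932, 1926 and 675). Without replicate 1 with LX2 the calls were 2305 and 2298, and without replicate 2 they were 2573 and 2567; fewer libraries were then fitted. On limma's log2(FPKM + 1) the changes of at least 2-fold outside the blood-cell lists were 253 (205 higher, 48 lower), since the pseudocount shrinks low genes. On library totals 4001 genes were called (2968 higher, 1033 lower) and 72.9% of the 3922 were kept. limma on log2(FPKM + 1), with no TMM factors, gave 3086 higher and 1098 lower. The signs of the medians of the EGF, mitosis, p53, YAP, junction, NRF2, iron and respiratory lists turned on library totals. Deviations from the group mean correlated at 0.0556, 0.131 and 0.0202 between same-numbered libraries and at -0.119 to 0.0643 between the others. Whether the replicate number pairs libraries was not tested, and the labels do not say. With the replicate block 3301 genes were called, 3276 outside the blood-cell lists, 785 of them at least 2-fold. Calls of named genes lost without 1 library were those of UGT1A3, RN7SL2, HMGCS1, MT1X, MKI67 and ITGAM and smaller changes in ERN1, DNAJC3, SREBF1, ME1, RFC5, MCM4, NR1D1, ATP5F1A, NDUFA2, NDUFS1, CYCS, MT-ND3, MT-ATP6, CD22 and RAC2. The cause was not tested.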

Other observations

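The 13 genes of the mitochondrial genome had 3 falls and no rise (1 fall on library totals or without replicate 3 with LX2), led by MT-CO1 (log2 -0.62, SE 0.08; -0.44 on library totals). That is 23.1% called, close to the 21.5% of all genes tested. The 31 nuclear genes of the respiratory chain had 6 falls and 1 rise, which became no fall and 10 rises on library totals, and 1 or 2 falls without any 1 library other than replicate 2 alone. Of these nuclear genes 22.6% were called, also close to that share. Fatty acid synthesis had 2 rises and 1 fall of 19 tested (15.8% called). PPAR targets and fatty acid oxidation had 3 rises and 2 falls of 22 (22.7% called), with the pantetheinase VNN1 lower (log2 -1.27, SE 0.08). Among 30 NRF2 targets and xenobiotic enzymes 10 fell and 3 rose (4 and 6 on library totals). Without replicate 1 with LX2 the falls were 5, and without replicate 3 with LX2 there were 3 falls and 1 rise. The aldo-keto reductase AKR1B10, one of the most abundant transcripts of the line, fell by log2 0.93 (SE 0.08). Of 27 p53 targets 5 rose and 6 fell (9 and 3 on library totals; 3 rises without replicate 3 with LX2, and 3 falls without replicate 3 of either group or replicate 1 with LX2): TP53INP1 rose from 0.167, 0.198 and 0.278 FPKM to 1.91, 2.32 and 2.10 FPKM (log2 3.13, SE 0.22) and the BH3 protein BBC3 from 2.19, 2.01 and 2.21 FPKM to 7.26, 6.19 and 6.27 FPKM. In autophagy and lysosome genes 8 of 34 rose and 4 fell (12 and 1 on library totals), LAMP1 up by log2 0.57 (SE 0.06) and the receptor SQSTM1 lower by log2 -0.62 (SE 0.07; -0.44 on library totals). The rises were 5 without replicate 3 alone, 3 without replicate 1 with LX2 and 2 without replicate 3 with LX2, and the falls were 2 without replicate 1 alone or any 1 library with LX2.

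Of 18 liver transcription factors 5 rose and 1 fell (3 rises without replicate 1 or 3 alone or replicate 1 or 2 with LX2), with PROX1 (log2 1.17, SE 0.16) and GATA6 (log2 0.68, SE 0.12) higher and RXRA lower (log2 -0.55, SE 0.07; -0.38 on library totals). Of 19 clock genes 4 rose and 1 fell (1 or 2 rises without any 1 library other than replicate 2 with LX2): DBP, an output gene of the clock, rose from 0.449, 0.305 and 0.438 FPKM to 1.79, 1.83 and 2.01 FPKM (log2 2.06, SE 0.19) and NPAS2 fell (log2 -0.93, SE 0.09). Of the clock genes 26.3% were called, beside 21.5% of all genes tested. Iron genes had 4 rises and 2 falls of 18, and metallothioneins 1 rise of 5 (20% called). Hepatoma and progenitor markers had 2 rises and 4 falls of 12, adipocyte markers 2 rises and 1 fall of 6, and no Kupffer cell marker of 3 passed.

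Some genes with no count in HCCLM3 alone are known from other tissues and were singled out after their values were seen. KLK3, the prostate-specific antigen, had 73, 84 and 50 counts with LX2. LX2 alone had 67, 105 and 32 counts of KLK3, and LX2 with HCCLM3 had 4, 0 and 12. The source of the KLK3 counts was not tested. HOXB13, a homeobox gene of prostate, had 49, 53 and 23 counts and LX2 alone 296 to 391. The basal keratin KRT5 had 70, 34 and 24 counts and KRT6A had 25, 14 and 16, with none of either in LX2. TMPRSS2, which the line expressed, rose from 0.743, 0.891 and 0.785 FPKM to 4.41, 4.79 and 4.07 FPKM (log2 2.28, SE 0.12, adjusted p = 0.000314), while LX2 alone had 8 counts in each library. Among transcripts of LX2, FOLR1 had 12, 211 and 192 counts in HCCLM3 with LX2, a split of the 3 libraries like that of IGKC. The split was not shared by all of the 41 LX2 genes: IGFBP7 had 155, 167 and 183 counts there and COL7A1 189, 214 and 152, while COL5A1 had 61, 219 and 345. RN7SL2, a gene of the signal recognition particle RNA, was at 146, 34.3 and 44.3 FPKM alone and 16.6, 14.6 and 10.8 FPKM with LX2.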
